A study of Homo sapiens with 12 samples.

Results

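The comparison set HEK293 cells carrying the construct that the labels call A197-270 tandem against cells carrying the Flag vector, with interferon gamma (IFN-gamma) given to both. HEK293 is an established human embryonic kidney line. Per the labels, cells were transduced with their plasmid on day 1, received IFN-gamma on day 2 and were harvested on day 4, and poly(A)-selected RNA was sequenced. The members were the 3 vector libraries with IFN-gamma (7, 8 and 9) and the 3 A197-270 libraries with IFN-gamma (10, 11 and 12), 6 of the 12 libraries of the series, read across all 19836 genes of the deposited table. The other 6 libraries had the same 2 plasmids without IFN-gamma (vector 1, 2 and 3, A197-270 4, 5 and 6), and they entered the shared estimate of spread and the comparison without the cytokine. The labels do not say what A197-270 encodes or give the dose of IFN-gamma, and all groups rest on 1 cell line. Whether replicates were separate cultures is not in the labels, and every p-value therefore measures only the spread between these libraries, which may be technical.

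IFN-gamma binds a receptor of the subunits IFNGR1 and IFNGR2, and the attached kinases JAK1 and JAK2 start a relay that ends at GAS elements and switches on IRF1, the guanylate-binding proteins, antigen presentation genes and the chemokines CXCL9, CXCL10 and CXCL11. Type I and type III interferons, such as interferon beta and the interferon lambdas, act through other receptors and a complex with STAT2 and IRF9 that binds ISRE elements of antiviral genes. The heat shock response is a separate programme, in which the factor HSF1 binds heat shock elements and raises chaperone genes when unfolded protein builds up in the cytosol.

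The 6 libraries held 31417431 to 39299762 reads. Values are normalized counts, that is reads divided by 1 factor per library, and they are given in library order. Correlations over the tested genes, across genes that are not independent replicates, lay at 0.978 to 0.982 for libraries of the same group and at 0.971 to 0.977 for libraries of different groups. Of 12 markers of HEK293 cells, 11 were at 10 or more normalized counts in all 6 libraries and KRT19 was at 0. Their summed level was 62900 to 66890 in the vector libraries and 80370 to 83480 in the A197-270 libraries. Of the 11 tested, 4 were called higher and 1 lower, 45.5% against 34.8% of all tested genes. The higher ones included the intermediate filament genes VIM, NEFL and NEFM. The lower one was BASP1, a membrane-bound signalling protein gene (log2 -0.31). The markers of other cell types summed to 608.9 to 639.2 and to 480.3 to 587.8, with the leukocyte genes PTPRC and CD3E, the endothelial gene VWF and the haemoglobin gene HBB at 0 in all 6 and the epithelial gene EPCAM called lower (log2 -0.48). In bulk RNA, fewer cells of a type and less RNA per cell cannot be told apart.

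Many genes differed between the constructs, mostly by little, and a small set differed by a lot. Of 14049 genes tested with limma, 4888 (34.8%) passed an adjusted p of 0.05, 2616 (18.6%) higher and 2272 (16.2%) lower with A197-270. With each library scaled to the same total in place of the deposited factors, the split was 1512 higher and 4170 lower, so directions are given on the deposited scale, followed by a list's counts of higher and lower calls with equal totals where these differ. The called genes had a median absolute log2 fold change of 0.27, and 4455 of them were under 1.5-fold. At 2-fold or more, 46 genes (0.327%) were higher and 73 (0.52%) lower. The groups of 3 libraries did not overlap in 3298 genes (23.5%) in the higher direction and 3212 (22.9%) in the lower.

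**Figure D1:**
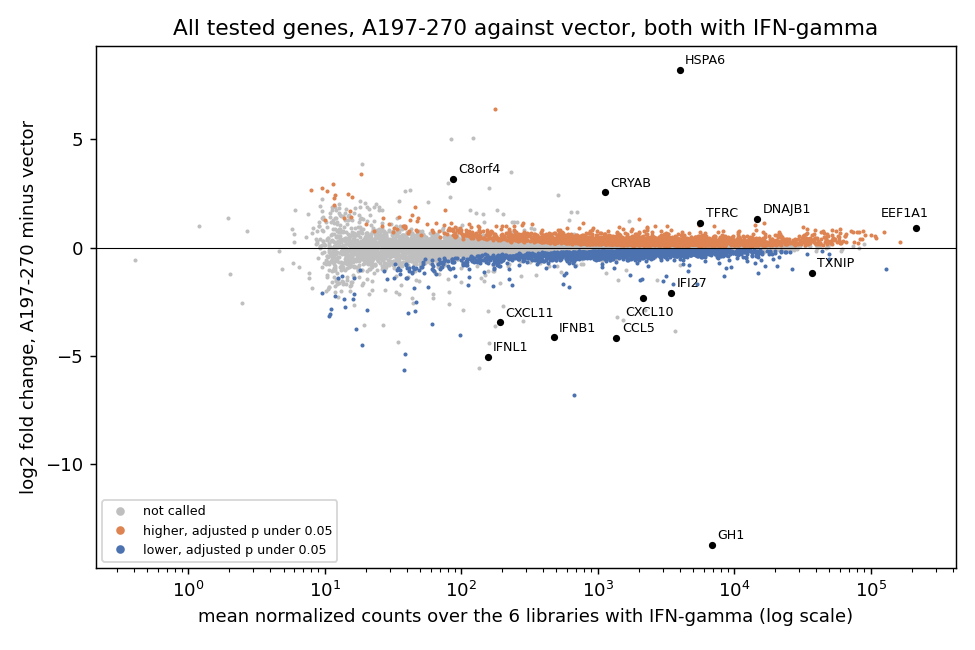
The log2 fold change of A197-270 over vector, both with IFN-gamma, is plotted against the mean normalized counts over the 6 libraries (log scale) for the 14049 tested genes, coloured by direction where the adjusted p was under 0.05, with 14 genes marked in black. HSPA6 lies at a log2 fold change of 8.23, while GH1, IFNL1, CCL5 and IFNB1 lie far below 0.

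Inducible chaperone genes were strongly higher with A197-270. HSPA6 (ENSG00000173110.7, chromosome 1, 161524540 to 161526910, in hg38), a strictly stress-inducible HSP70, had 22.6, 27.6 and 26.9 normalized counts in the vector libraries and 7675, 8020 and 8225 in the A197-270 libraries. The groups lay far apart, with every A197-270 library above every vector library (log2 8.23 ± 0.101 SE, adjusted p = 4.06e-16). HSPA1A and HSPA1B, the pair of near-identical major inducible HSP70 genes whose reads may be shared, averaged 3612 ± 370.2 and 21510 ± 1833 with the vector and 7537 ± 1170 and 42060 ± 2221 with A197-270 (SD, n = 3). Their log2 fold changes were 1.05 and 0.97, with no overlap between groups. DNAJB1, the HSP40 that delivers substrates to HSP70, had 7485, 9085 and 8660 with the vector against 20980, 21010 and 21650 (log2 1.34 ± 0.0778 SE, adjusted p = 8.62e-08). CRYAB, the small heat shock protein alpha-B crystallin, had 236, 439.9 and 322 against 1984, 1842 and 1927 (log2 2.57 ± 0.22 SE, adjusted p = 2.21e-06). The vector libraries varied more in CRYAB than the A197-270 libraries did, yet the highest of them stayed under the lowest A197-270 library. BAG3, which links HSP70 to selective autophagy, had 1958, 2182 and 2321 against 4146, 4305 and 4509 (log2 1.01 ± 0.0594 SE, adjusted p = 9.15e-08).

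Promoter windows are shown for 3 of these genes because HSF1 binds heat shock elements. The core searched for was GAANNTTC (a palindrome, so both strands read alike), and other forms of the element were not searched for. The windows are RefSeq windows of 300 bases on GRCh38.p14, most of each lying before the annotated start. They are printed 5′ to 3′ on the gene's strand with matches to that core in capitals. HSPA6 is chr1:161524290-161524589 (plus strand), HSPA1B chr6:31827488-31827787 (plus strand) and DNAJB1 chr19:14518348-14518647 (minus strand, the second of 3 windows listed for the gene).
HSPA6: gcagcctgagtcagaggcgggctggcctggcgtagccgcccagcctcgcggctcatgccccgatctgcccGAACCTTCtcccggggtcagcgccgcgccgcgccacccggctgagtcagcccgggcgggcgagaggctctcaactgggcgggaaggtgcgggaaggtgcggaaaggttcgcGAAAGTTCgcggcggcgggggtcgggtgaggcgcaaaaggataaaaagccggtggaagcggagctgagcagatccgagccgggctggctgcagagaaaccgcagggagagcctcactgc
HSPA1B: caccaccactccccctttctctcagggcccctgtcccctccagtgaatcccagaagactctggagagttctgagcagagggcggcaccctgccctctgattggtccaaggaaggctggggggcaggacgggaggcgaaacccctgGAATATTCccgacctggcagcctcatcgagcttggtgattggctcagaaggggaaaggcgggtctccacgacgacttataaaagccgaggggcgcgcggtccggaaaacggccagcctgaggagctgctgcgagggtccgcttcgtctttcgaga
DNAJB1: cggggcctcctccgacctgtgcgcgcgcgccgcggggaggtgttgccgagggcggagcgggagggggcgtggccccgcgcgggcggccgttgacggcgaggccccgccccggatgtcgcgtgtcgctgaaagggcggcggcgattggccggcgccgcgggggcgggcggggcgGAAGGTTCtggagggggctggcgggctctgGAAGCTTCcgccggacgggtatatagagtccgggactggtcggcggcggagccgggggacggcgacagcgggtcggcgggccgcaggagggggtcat
Counted from 1 at the 5′ end of each window, matches began at 71 and 182 in HSPA6, at 146 in HSPA1B and at 174 and 204 in DNAJB1. HSPA1A held 1 match at 145. Of the DNAJB1 windows not printed, the first held 0 matches and the third 1. The windows of HSPH1 and BAG3 did not hold these letters. Of all 35116 windows in the table, 6.77% held the core, and 8.21% of genes had it in at least 1 window. A match is a description of the letters, not evidence of binding.

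The rest of the chaperone families moved less, and several members did not pass. In the HSP70 and HSP110 list, 6 of 12 tested members were called higher and 0 lower (median log2 0.21; 5 and 0 with equal totals, 4 and 1 with quantile normalization). HSPH1, the HSP110 nucleotide exchange factor, had 13020, 14000 and 12620 with the vector and 20550, 20330 and 20190 with A197-270 (log2 0.63 ± 0.0452 SE, adjusted p = 4.86e-07). HSPA2, HSPA13 and HSPA14 did not pass. Among HSP40 genes DNAJB1 was the 1 member of 12 called higher, and DNAJB5 was called lower (log2 -0.39), against 1 and 5 with equal totals. In the small heat shock and BAG list, 4 of 12 tested members were called higher and 2 lower (4 and 4 with equal totals). HSPB1 (HSP27) was higher at 0.33, and BAG1 was lower at -0.40. For the HSP90 machinery, 5 of 16 tested members were called higher and 1 lower, against 4 and 3 with equal totals and 1 and 2 with quantile normalization. In the order of these 4 lists, 50%, 16.7%, 50% and 37.5% of tested members were called, against 34.8% of all tested genes. HSP90AB1 and HSP90AA1, the cytosolic HSP90 genes, had log2 fold changes of 0.40 and 0.28, neither of which passed with quantile normalization. HSF1 itself had 2521, 2504 and 2464 with the vector and 2267, 2265 and 2350 with A197-270, a difference that did not pass (adjusted p = 0.132), and HSF2 was lower (log2 -0.23). Together the 57 genes of the 4 heat shock lists took 1.458%, 1.539% and 1.493% of the reads in the vector libraries and 1.773%, 1.728% and 1.753% in the A197-270 libraries, groups that did not overlap (exact two-sided permutation p = 0.1, the smallest that 3 against 3 allow).

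All 10 tested chaperonin genes were higher with A197-270. These encode the cytosolic TRiC ring, which folds actin and tubulin, and its mitochondrial counterpart HSP60. The median log2 fold change was 0.23, against -0.0050 over all tested genes, and 9 members passed with equal totals and 7 with quantile normalization. CCT7, a TRiC subunit, had 13730, 14310 and 13930 with the vector and 19990, 19080 and 19340 with A197-270 (log2 0.48 ± 0.0392 SE, adjusted p = 1.58e-06). HSPD1, the HSP60 gene, had 46840, 51510 and 48750 against 69380, 68940 and 66780 (log2 0.48 ± 0.0436 SE, adjusted p = 3.56e-06). Neither gene's groups overlapped. Both genes lay in the tenth of tested genes with the highest mean over all 12 libraries. There the median log2 was 0.0875, and 43.8% of genes were called higher.

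**Figure D2:**
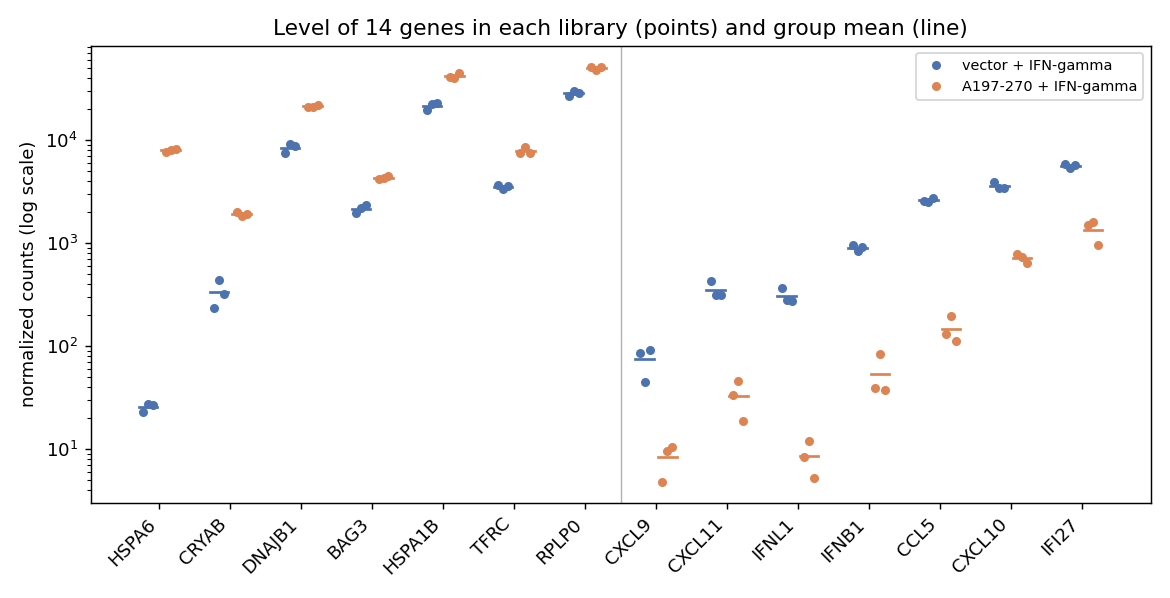
Normalized counts (log scale) of 14 genes in each of the 3 vector libraries and 3 A197-270 libraries with IFN-gamma are shown as points, with group means as lines. The 7 genes on the left were higher and the 7 on the right lower with A197-270, and in none of the 14 did the groups overlap.

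The genes of type I and type III interferons and the chemokines they share with IFN-gamma were among the largest falls. All 4 tested interferon genes were lower with A197-270 (median log2 -4.79). IFNB1 (ENSG00000171855.6, chromosome 9, 21077105 to 21077963), interferon beta, had 951, 833 and 908 with the vector and 39.5, 83.3 and 37.5 with A197-270 (log2 -4.14 ± 0.232 SE, adjusted p = 6.99e-08). IFNL1, an interferon lambda, had 364, 279.5 and 271 against 8.38, 12.1 and 5.21 (log2 -5.05 ± 0.324 SE, adjusted p = 1.88e-07). The near-identical IFNL2 and IFNL3 averaged 75.3 ± 3.96 and 36.5 ± 7.85 with the vector, and the A197-270 libraries together held 2 and 3 of their reads. The 2 groups were thus separate for all 4 genes, although the A197-270 levels of the 3 lambda genes rest on few reads. The chemokine list had 0 of 15 members called higher and 7 lower, a lower share of 46.7% against 16.2% of all tested genes. CCL5, which attracts T cells and monocytes, had 2570, 2493 and 2734 against 130.5, 197 and 112 (log2 -4.18 ± 0.147 SE, adjusted p = 3.7e-10). CXCL10, a ligand of the chemokine receptor CXCR3 of T cells, had 3931, 3384 and 3431 against 783, 736 and 638 (log2 -2.32 ± 0.593 SE, adjusted p = 0.008). Its relative CXCL11 had 428, 312 and 310.1 against 33.5, 45.9 and 18.8 (log2 -3.45 ± 0.418 SE, adjusted p = 3.48e-05). CXCL9, the third ligand of CXCR3, had 85.4, 45.1 and 91.6 against 4.79, 9.65 and 10.4 (log2 -3.01 ± 0.705 SE, adjusted p = 0.00471), and 0 reads in all 6 libraries without IFN-gamma. For each of these 4 chemokine genes the highest A197-270 library was below the lowest vector library. IL32 and CSF1 were lower by smaller amounts (-0.51 and -0.35), and CXCL1, CXCL8 and CCL2 did not pass.

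The promoters of the 3 CXCR3 ligands, neighbours on chromosome 4, are shown because their genes are textbook IFN-gamma targets and all 3 were lower here. Capitals mark the ISRE core (GAAA, any 2 bases, GAAA) or the GAS core TTCNNNGAA, searched on both strands (the second is its own reverse complement). The RefSeq GRCh38.p14 windows, all on the minus strand, are chr4:76007460-76007759 for CXCL9, chr4:76023448-76023747 for CXCL10 and chr4:76036021-76036320 for CXCL11.
CXCL9: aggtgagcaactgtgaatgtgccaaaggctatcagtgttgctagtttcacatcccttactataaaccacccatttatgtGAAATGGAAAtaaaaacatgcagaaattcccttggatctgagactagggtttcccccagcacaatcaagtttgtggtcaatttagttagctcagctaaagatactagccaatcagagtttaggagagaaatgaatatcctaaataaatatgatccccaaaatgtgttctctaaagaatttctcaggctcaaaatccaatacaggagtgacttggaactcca
CXCL10: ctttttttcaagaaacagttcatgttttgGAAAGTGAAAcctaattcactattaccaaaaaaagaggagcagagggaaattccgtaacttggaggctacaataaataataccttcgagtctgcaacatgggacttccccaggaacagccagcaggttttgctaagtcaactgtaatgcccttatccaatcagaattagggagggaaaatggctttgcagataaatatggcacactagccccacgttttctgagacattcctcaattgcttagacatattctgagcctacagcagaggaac
CXCL11: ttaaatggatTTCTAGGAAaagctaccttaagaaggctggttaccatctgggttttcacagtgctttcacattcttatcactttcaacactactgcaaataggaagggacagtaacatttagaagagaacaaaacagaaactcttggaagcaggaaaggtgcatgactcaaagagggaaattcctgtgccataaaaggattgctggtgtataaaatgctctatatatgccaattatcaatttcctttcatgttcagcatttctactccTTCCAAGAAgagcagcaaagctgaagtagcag
CXCL9 and CXCL10 each held 1 ISRE core, at 80 and 30, and CXCL11 held GAS cores at 11 and 269. The ISRE core was found in 3.57% and the GAS core in 7.66% of all windows. The absence of a core from a window says only that these letters are not in those bases.

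The antiviral effectors were mostly lower with A197-270. Of 45 tested members, 34 were called lower and 3 higher (median log2 -0.53), and the counts were 2 and 36 in the order higher and lower with equal totals. The 47 genes of the list took 0.912% ± 0.053 of the vector reads and 0.59% ± 0.0491 of the A197-270 reads (SD, n = 3, exact p = 0.1). IFI27 had 5791, 5329 and 5713 with the vector and 1480, 1593 and 958 with A197-270 (log2 -2.10 ± 0.149 SE, adjusted p = 4.11e-07). MX2, a GTPase that blocks viral nuclear import, had 1008, 916 and 938 against 274, 313 and 230.3 (log2 -1.81 ± 0.379 SE, adjusted p = 0.00225). IFITM3, which blocks fusion of viruses in endosomes, had 8754, 7259 and 8373 against 2782, 2720 and 2074 (log2 -1.69 ± 0.119 SE, adjusted p = 3.9e-07). The groups were separate in all 3 genes. ISG15, a ubiquitin-like modifier, OASL and OAS2, members of the oligoadenylate synthetase family, and the antiviral enzyme gene RSAD2 had log2 fold changes of -1.54, -1.45, -1.69 and -1.10. PARP14 had 81.3, 86.5 and 73.2 against 13.2, 12.1 and 14.6 and 0 reads in all 6 libraries without IFN-gamma (log2 -2.51 ± 0.61 SE, adjusted p = 0.00594). Not all members moved this way. SAMHD1, which depletes nucleotides for viral copying, had 8099, 8499 and 7999 against 10110, 10340 and 8906 (log2 0.25 ± 0.0565 SE, adjusted p = 0.00351), and TRIM25, the ubiquitin ligase that activates RIG-I, had 8455, 8501 and 8289 against 9924, 10040 and 9747 (log2 0.23 ± 0.0534 SE, adjusted p = 0.00391). IFIT3 and EIF2AK2, the kinase PKR, did not pass (log2 -0.14 and -0.02). Among 13 sensing genes 6 were lower, with IFI16, a DNA sensor, at 399, 356 and 328 against 121, 119.5 and 86.5 (log2 -1.73 ± 0.299 SE, adjusted p = 0.000574), while MAVS, the adaptor of the RNA sensors, was higher (log2 0.30 ± 0.071 SE, adjusted p = 0.00456). The called shares of the antiviral and sensing lists were 82.2% and 53.8%, against 34.8% of all tested genes.

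OAS1 shows a limit of the shared fit. It had 4376, 3869 and 3843 with the vector and 1561, 1615 and 1095 with A197-270, with no overlap, but its adjusted p in the fit of all 12 libraries was 0.0571. In A197-270 libraries without IFN-gamma it had 11.3, 4.67 and 0, a wide relative spread that enters the shared estimate. With the 6 IFN-gamma libraries alone its adjusted p was 4.63e-05, and edgeR's quasi-likelihood test on the recovered reads gave 6.99e-06. The guanylate-binding protein gene GBP5 (547, 491 and 455 against 228, 186 and 214) and TNFSF10, the death ligand TRAIL (209, 228 and 219.8 against 91.0, 76.0 and 57.3), had adjusted p of 0.181 and 0.0853 in the full fit and of 6.81e-05 and 0.000267 in the 6 libraries. There were 9 genes with at least a 2-fold difference, no overlap and a mean of at least 50 that the main test did not call, and 6 of them passed with the 6 libraries alone. Only 3 of the 9, namely OAS1, GBP5 and TNFSF10, passed with edgeR.

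The receptor and relay of IFN-gamma differed far less than the chemokines did. In the list 1 of 16 tested members were called higher and 7 lower (median log2 -0.15; 0 and 9 with equal totals). The called share was 50%, against 34.8% of all tested genes. The higher call was JAK1 (log2 0.14 ± 0.0498 SE, adjusted p = 0.0437), with overlapping groups. That call was lost with equal totals, quantile normalization, edgeR and the 6 libraries alone. IFNGR1, the ligand-binding subunit, had 3252, 3406 and 3508 with the vector and 3032, 2848 and 2700 with A197-270 (log2 -0.25 ± 0.0448 SE, adjusted p = 0.000865). IFNGR2 did not pass (log2 -0.12). JAK2 had 673, 663 and 648 against 473, 566 and 530.4 (log2 -0.34 ± 0.076 SE, adjusted p = 0.00339). IRF1, a transcription factor made early in the response, had 4744, 4626 and 4350 against 4210, 4033 and 4322 and did not pass (log2 -0.13 ± 0.0603 SE, adjusted p = 0.12). SOCS1, the feedback inhibitor of the JAK kinases, had 81.3, 48.9 and 46.4 against 34.7, 36.2 and 20.8 and did not pass (log2 -0.91 ± 0.458 SE, adjusted p = 0.139). CIITA, the activator of MHC class II genes, was at 3.62 to 15.9 normalized counts in the 6 libraries, and its mean over all 12 was under 10, so it was not tested. For the other interferon receptors, IFNAR1 was higher (log2 0.20) and IFNLR1 lower (-0.22), and the first did not pass with equal totals. The IFNAR1 call was lost without vector library 9 or A197-270 library 11 and the IFNLR1 call without 9 or 12, with adjusted p of 0.00745 to 0.0697 and 0.0122 to 0.0637 over all 6 omissions.

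Classical IFN-gamma targets in host defence and antigen presentation were split between clear falls and small differences. Of 17 guanylate-binding, APOL and related genes, 5 were called lower and 1 higher, with a median log2 of -0.41 (0 higher and 6 lower with equal totals). These calls are 35.3% of the list, near the 34.8% of all tested genes. IDO1, which degrades tryptophan, had 183, 173 and 159.9 with the vector and 46.7, 55.5 and 51.1 with A197-270 (log2 -1.73 ± 0.453 SE, adjusted p = 0.00902). Its call was lost without vector library 7, and its adjusted p ran from 0.0265 to 0.0513 with each of the 6 libraries left out in turn. GBP1 had 10790, 10020 and 9770 against 8428, 7767 and 7370 with no overlap (log2 -0.38 ± 0.131 SE, adjusted p = 0.0383), and its adjusted p ran from 0.0476 to 0.116 over the same omissions, missing the threshold without vector libraries 7, 8 or 9 or A197-270 libraries 11 or 12. The 1 higher call, WARS, a tryptophanyl-tRNA synthetase, turned to a lower call with quantile normalization (adjusted p 0.0462) and was lost with equal totals and without any 1 of libraries 7 to 11 (adjusted p 0.028 to 0.154 over the 6 omissions). In MHC class I presentation, 1 of 16 tested members were called higher and 7 lower (median -0.18; 1 and 9 with equal totals), a called share of 50%. HLA-B had 27690, 25740 and 26480 against 15550, 15290 and 14080 (log2 -0.83 ± 0.0578 SE, adjusted p = 3.71e-07). B2M, the class I light chain, had 56660, 60370 and 59070 against 43250, 39040 and 37840 (log2 -0.55 ± 0.0471 SE, adjusted p = 2.16e-06). HLA-E was lower too (log2 -0.43), and the HLA values may share reads among near-identical genes. The peptide transporter gene TAP1 did not pass (log2 -0.17), nor did the 5 immunoproteasome and PA28 genes, with PSME2 at -0.02, of which 2 were called lower with equal totals. For MHC class II, 3 of 16 were lower and 2 higher (1 higher and 3 lower with equal totals), a called share of 31.2% that is below that of all tested genes. HLA-DRA, the alpha chain of HLA-DR, was lower (log2 -0.71 ± 0.137 SE, adjusted p = 0.00125), and RFXAP, a subunit of the RFX factor that class II promoters need, was higher (log2 0.37 ± 0.0844 SE, adjusted p = 0.00413).

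Complement genes were called about as often as all tested genes, 35.3% against 34.8%. Of 17 tested members 2 were higher and 4 lower (2 and 7 with equal totals). SERPING1 (ENSG00000149131.15, chromosome 11, 57597387 to 57614853), the C1 inhibitor, had 11430, 11740 and 10920 with the vector and 6463, 6010 and 5400 with A197-270 (log2 -0.93 ± 0.0631 SE, adjusted p = 3.16e-07). Its groups did not overlap. CFB, the alternative pathway protease, had 358, 114 and 343 against 45.5, 71.2 and 99, with vector library 8 far below its fellows. Its call (log2 -1.80 ± 0.599 SE, adjusted p = 0.0313) was lost without vector library 7 (adjusted p 0.114), vector library 9 (0.118), A197-270 library 10 (0.109) or 11 (0.0682). The membrane regulators CD46, CD55 and CD59 did not pass (log2 -0.06, -0.01 and -0.07), and C9 had 0 reads in all 12 libraries.

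**Figure D3:**
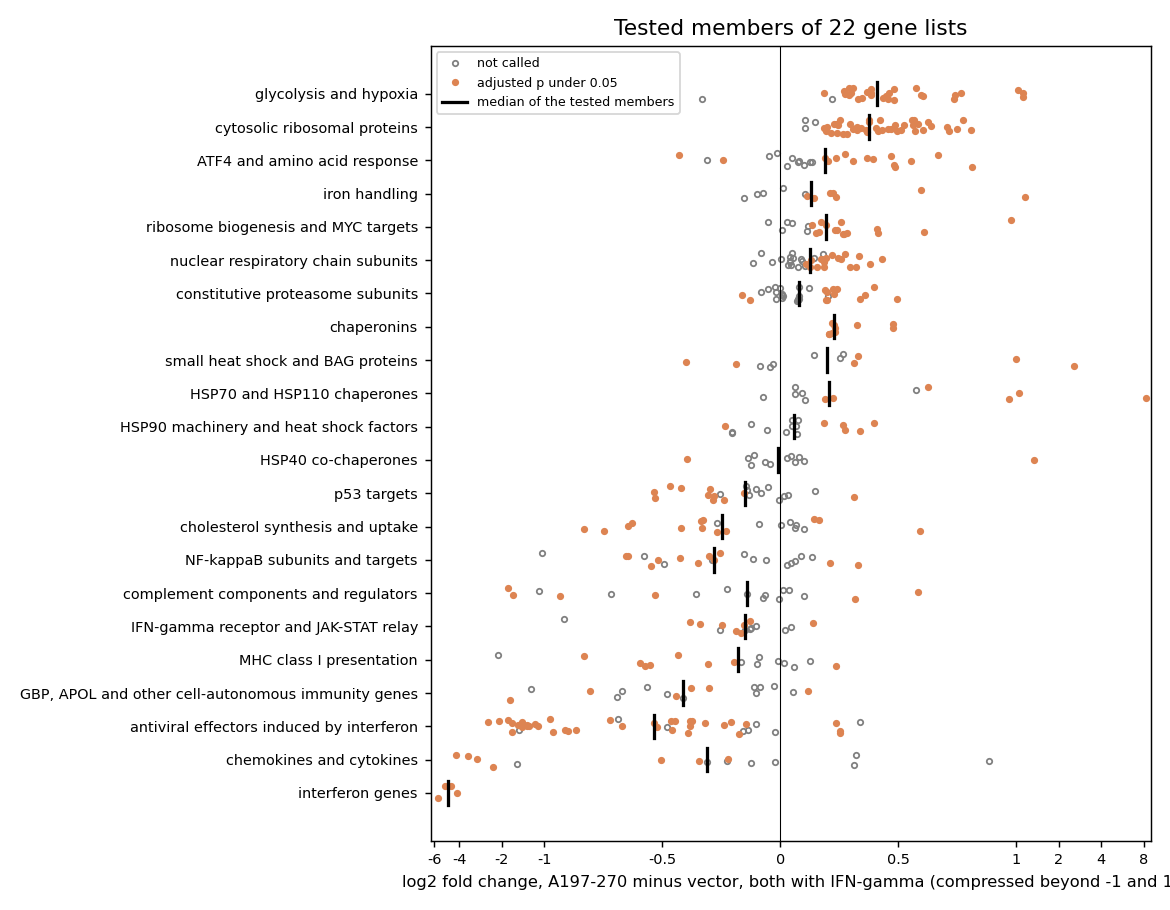
Points are the log2 fold changes of the tested members of 22 gene lists, filled where the adjusted p was under 0.05, and black bars are list medians; the axis is compressed beyond -1 and 1. The medians run from -4.79 for the interferon genes to 0.41 for glycolysis and hypoxia.

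Ribosomal protein genes were higher with A197-270 almost throughout. Of 47 tested members, 44 were called higher and 0 lower, with a median log2 fold change of 0.38. With equal totals 41 were higher and with quantile normalization 28 were higher and 1 lower. RPLP0, the stalk protein, had 26840, 29950 and 28780 with the vector and 50620, 47670 and 51440 with A197-270 (log2 0.81 ± 0.0549 SE, adjusted p = 3.16e-07). RPL3, at the peptidyl transferase centre, had 49260, 56120 and 55090 against 92040, 90510 and 92020 (log2 0.78 ± 0.0544 SE, adjusted p = 3.71e-07). RPSA had 39060, 44120 and 42320 against 72920, 65210 and 72770 (log2 0.75 ± 0.0605 SE, adjusted p = 1.35e-06). The 2 groups were apart in all 3. RPS15, RPS19 and RPL35 were the 3 members that did not pass (log2 0.11, 0.15 and 0.10). Together the 47 genes took 3.955%, 4.365% and 4.291% of the reads in the vector libraries and 5.523%, 5.387% and 5.354% in the A197-270 libraries, means of 4.20% ± 0.218 and 5.42% ± 0.0899 (SD, n = 3, exact p = 0.1). That share of the library is a share of reads and carries no scaling factor.

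Factors that build ribosomes were also higher, by less. In the list of ribosome biogenesis genes and MYC targets, 15 of 21 tested members were called higher and 0 lower (8 and 1 with equal totals, 11 and 1 with quantile normalization). That is 71.4% higher, against 18.6% of all tested genes. MYC, the transcription factor, had 1937, 1626 and 1753 with the vector and 3382, 3543 and 3518 with A197-270 (log2 0.98 ± 0.0905 SE, adjusted p = 4.16e-06). UTP20, a part of the small-subunit processome, had 1015, 844 and 842 against 1275, 1387 and 1453 (log2 0.61 ± 0.0988 SE, adjusted p = 0.00036), and POLR1A, the largest subunit of RNA polymerase I, had 2457, 2327 and 2345 against 2981, 3302 and 3242 (log2 0.42 ± 0.0789 SE, adjusted p = 0.00113). None of the 3 overlapped between groups. The nucleolar GTPase gene GNL3 did not pass (log2 -0.05).

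**Figure D4:**
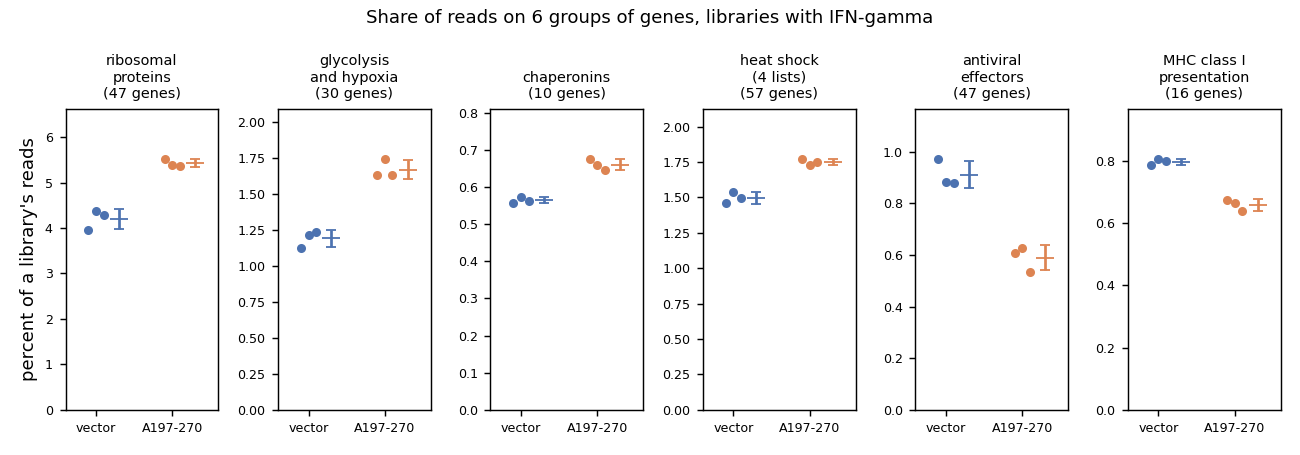
The percent of a library's reads on 6 groups of genes is shown for each IFN-gamma library (points) with the group mean and SD beside them, on axes that start at 0. Ribosomal protein, glycolysis and hypoxia, chaperonin and heat shock genes took a larger share in all 3 A197-270 libraries, and antiviral and MHC class I genes a smaller one.

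Nearly all glycolysis and hypoxia genes were higher with A197-270, with 28 of 30 higher and 0 lower, and 26 higher with equal totals and 25 with quantile normalization. HK2, a hexokinase that commits glucose to glycolysis, had 10210, 11360 and 9661 with the vector and 18950, 28300 and 21490 with A197-270 (log2 1.12 ± 0.109 SE, adjusted p = 6.03e-06). PGK1, phosphoglycerate kinase, had 31040, 33570 and 35060 against 55720, 59080 and 54560 (log2 0.77 ± 0.0541 SE, adjusted p = 3.91e-07). NDRG1, a hypoxia-responsive gene, had 8955, 9469 and 9617 against 18230, 20370 and 18710 (log2 1.03 ± 0.0455 SE, adjusted p = 6.15e-09). The groups were separate in all 3, with A197-270 library 11 highest for HK2 and NDRG1. These 3 genes lay in the tenth with the highest mean, of which 43.8% were called higher, against 18.6% of all tested genes. LDHA, which makes lactate, and ENO1, enolase, both had a log2 fold change of 0.74. CA9 and ADM, 2 hypoxia markers, did not pass, CA9 being near the lower limit of testing. The 30 genes took 1.19% ± 0.0578 of the vector reads and 1.67% ± 0.0653 of the A197-270 reads (SD, n = 3, exact p = 0.1).

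The main iron uptake gene and its regulators were higher with A197-270. TFRC (ENSG00000072274.12, chromosome 3, 196027183 to 196082189), the transferrin receptor, had 3676, 3321 and 3546 with the vector and 7459, 8491 and 7489 with A197-270 (log2 1.15 ± 0.0626 SE, adjusted p = 5.37e-08). ACO1 and IREB2 encode the iron regulatory proteins that bind TFRC messenger RNA and stabilise it when iron is low. ACO1 had 1573, 1569 and 1573 against 2369, 2333 and 2429 (log2 0.60 ± 0.0357 SE, adjusted p = 1.02e-07), and IREB2 had 8304, 7805 and 7907 against 9358, 9629 and 9339 (log2 0.24 ± 0.0425 SE, adjusted p = 0.000723). Neither overlapped between groups. The ferritin genes FTH1 and FTL were higher by 0.21 and 0.14 on the log2 scale. In all, 7 of 12 iron genes were higher and 0 lower, against 3 and 2 with equal totals. That is 58.3% higher, against 18.6% of all tested genes.

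Cholesterol genes went mostly the other way. Of 20 members, 10 were lower and 3 higher (median log2 -0.25; 1 higher and 12 lower with equal totals). The called share was 65%, against 34.8% of all tested genes. IDI1, the isomerase of isoprenoid synthesis, had 5041, 5850 and 4929 with the vector and 3333, 3069 and 2998 with A197-270 (log2 -0.75 ± 0.0864 SE, adjusted p = 2.45e-05). MSMO1, an enzyme of sterol synthesis, and INSIG1, the sterol-sensing anchor, had log2 fold changes of -0.65 and -0.63. PMVK, phosphomevalonate kinase, went the other way, with 425, 348 and 447 against 572, 641 and 618 (log2 0.59 ± 0.0865 SE, adjusted p = 0.00017). SC5D, a desaturase of sterol synthesis, was also called higher (log2 0.17), a call that was lost with equal totals. The factor gene SREBF2 did not pass (log2 0.00).

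Among stress programmes other than heat shock, the ATF4, ER and NRF2 lists held no difference as large as those of HSPA6, CRYAB or DNAJB1. The median log2 fold changes of the ATF4 and NRF2 lists, 0.19 and 0.23, were near the 0.21 of the HSP70 and HSP110 list. Of the ATF4 and NRF2 lists 60% and 78.6% of tested members were called, against 34.8% of all tested genes. In the ATF4 and amino acid list, 13 of 25 tested members were called higher and 2 lower (median 0.19; 10 and 3 with equal totals), led by DDIT4, an inhibitor of mTORC1, with 10480, 11310 and 9762 against 16760, 22840 and 16370 (log2 0.81 ± 0.102 SE, adjusted p = 5.02e-05) and TRIB3, a pseudokinase, with 852, 847 and 745 against 1295, 1428 and 1169 (log2 0.67 ± 0.0861 SE, adjusted p = 5.93e-05). ATF4 itself did not pass, and PPP1R15A, which reverses eIF2 phosphorylation, was lower (log2 -0.43 ± 0.0626 SE, adjusted p = 0.000164). In the ER unfolded protein response, 7 of 19 were higher and 0 lower, with HERPUD1, of ER-associated degradation, at 0.38 and the ER HSP70 gene HSPA5 not passing (log2 0.18). With equal totals that list had 5 higher and 2 lower, and its called share of 36.8% was near the 34.8% of all tested genes. Of 14 NRF2 targets 10 were higher and 1 lower (6 and 1 with equal totals). The higher ones included HMOX1, heme oxygenase (log2 0.38 ± 0.0605 SE, adjusted p = 0.00032), and the pentose phosphate genes PGD and TALDO1 (0.38 and 0.43).

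Protein disposal genes were mixed. Of 31 constitutive proteasome subunits 11 were higher and 2 lower (9 and 4 with equal totals), with a median log2 of 0.08. The called share of this list was 41.9%, against 34.8% of all tested genes. PSMB7, a catalytic subunit, had 2979, 3266 and 3063 with the vector and 4401, 4373 and 4347 with A197-270 (log2 0.50 ± 0.0557 SE, adjusted p = 1.95e-05). UBB, a polyubiquitin gene, was higher (log2 0.38) but not with quantile normalization, and ZFAND2A, a heat-inducible proteasome-binding protein, had 319.9, 394 and 274 against 469, 499.6 and 473 (log2 0.56 ± 0.109 SE, adjusted p = 0.00133). For autophagy, 7 of 28 were lower and 1 higher, and 17 lower and 0 higher with equal totals. On the deposited scale 28.6% of that list was called, fewer than the 34.8% of all tested genes. GABARAPL1, an ATG8 family member, had 6507, 7134 and 7197 against 5823, 5779 and 5519 (log2 -0.28 ± 0.0577 SE, adjusted p = 0.0019). The receptor gene SQSTM1 did not pass (log2 -0.08 ± 0.0347 SE, adjusted p = 0.0933). RNF34, a ubiquitin ligase, and ZFYVE21, an endosomal protein, were lower by small amounts (log2 -0.25 ± 0.0416 SE, adjusted p = 0.00051 and log2 -0.25 ± 0.0526 SE, adjusted p = 0.00207).

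Respiratory chain genes of the mitochondrial and the nuclear genome were higher in part. Of 13 mitochondrially encoded genes 7 were higher and 0 lower (6 and 0 with equal totals), with a median log2 of 0.43. MT-CYB, of complex III, had 5158, 4326 and 4781 with the vector and 8945, 7802 and 11590 with A197-270 (log2 0.97 ± 0.15 SE, adjusted p = 0.000247). MT-ND1 and MT-ND2 did not pass (log2 -0.21 and -0.07). These genes took 0.475%, 0.405% and 0.436% of the vector reads and 0.572%, 0.478% and 0.712% of the A197-270 reads. The means were 0.438% ± 0.0352 and 0.587% ± 0.118 (SD, n = 3), a difference of 0.149 percentage points with an exact two-sided permutation p of 0.1, the smallest this design allows. Without A197-270 library 12 the difference was 0.0863 percentage points. The A197-270 libraries spread widely here, and library 11 lay close to the vector library 7. Of 34 nuclear-encoded subunits, 17 were higher and 0 lower (9 and 3 with equal totals), the ATP synthase gene ATP5A1 at 12430, 13720 and 13000 against 18520, 17500 and 16770 (log2 0.43 ± 0.0492 SE, adjusted p = 2.22e-05). Of the mitochondrial and nuclear lists 53.8% and 50% were called, against 18.6% of all tested genes called higher. In the tenth with the highest mean, where ATP5A1 lay, 43.8% of genes were called higher.

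Cell cycle genes gave no single direction on the deposited scale and were more often called lower with equal totals. Of 28 replication genes 6 were higher and 11 lower, or 3 and 16 with equal totals, and of 23 mitotic genes 8 were higher and 3 lower, or 4 and 9 with equal totals. Called shares were 60.7% and 47.8%, against 34.8% of all tested genes. POLA1, the DNA polymerase alpha subunit, was higher (log2 0.50 ± 0.0513 SE, adjusted p = 9.55e-06), while CDK2, FEN1 and PCNA were lower (log2 -0.26, -0.24 and -0.19). CENPF, a kinetochore protein, had 7562, 7383 and 7510 with the vector and 9250, 10110 and 11130 with A197-270 (log2 0.44 ± 0.0722 SE, adjusted p = 0.000415), and CDK1 was lower (log2 -0.19). Of 22 p53 targets 10 were lower and 1 higher (1 higher and 13 lower with equal totals), a called share of 50%. PLK3 and the death receptor gene FAS were lower (log2 -0.54 and -0.53), CDKN1A (p21) was lower at -0.30, and CCNG1, cyclin G1, was higher at 0.31. The p53 feedback ligase gene MDM2 did not pass.

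Inflammatory signalling and immediate-early genes were lower in part. Of 23 NF-kappaB genes 9 were lower and 2 higher (1 higher and 11 lower with equal totals). Called shares were 47.8% of these, 57.1% of the immediate-early and 48.3% of the matrix and adhesion genes. Over all tested genes 34.8% were called, 18.6% higher and 16.2% lower. NFKBIA, the inhibitor that NF-kappaB itself induces, had 1362, 1321 and 1569 with the vector and 942, 934 and 836 with A197-270 (log2 -0.65 ± 0.0874 SE, adjusted p = 9.03e-05). RELB, a subunit, had 225, 204 and 225 against 147, 134 and 133 (log2 -0.65 ± 0.109 SE, adjusted p = 0.00043), and TNIP1, an A20 partner, was higher (log2 0.33 ± 0.042 SE, adjusted p = 5.29e-05). Of 21 immediate-early genes 10 were lower and 2 higher (1 higher and 11 lower with equal totals), among them KLF10 at -0.45 and JUNB at -0.46, while the phosphatase gene DUSP1 was higher at 0.38. TXNIP, which binds thioredoxin and links to the NLRP3 inflammasome, had 48260, 54580 and 51470 against 25240, 20610 and 22930 (log2 -1.17 ± 0.117 SE, adjusted p = 7.22e-06), the largest difference among 11 alarmin and inflammasome genes. In cell death genes 4 of 21 were lower and 2 higher (1 higher and 8 lower with equal totals), BAK1 at -0.31 and XIAP at 0.27. That is 28.6% called, fewer than among all tested genes. Matrix and adhesion genes had 10 of 29 higher and 4 lower (9 and 6 with equal totals), led by the laminin gene LAMB1 (log2 0.50 ± 0.0494 SE, adjusted p = 6.97e-06) in one direction and by CYR61, a matricellular protein gene, in the other (log2 -0.43 ± 0.0617 SE, adjusted p = 0.000148). Replication-dependent histones had 1 higher and 4 lower of 15 (1 and 7 with equal totals), a called share of 33.3%, with reads that similar copies may share and messenger RNAs that mostly lack a poly(A) tail.

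Several of the largest differences lay outside these lists. GH1, the pituitary growth hormone gene of a cluster of near-identical copies, had 11830, 14820 and 14690 with the vector and 0 reads in all 3 A197-270 libraries, against 35358 reads in the vector libraries. With a floor of 3 reads over the A197-270 libraries it was at least 12050-fold lower. The gap was also there without IFN-gamma, where GH1 averaged 10560 with the vector and 1.326 with A197-270 (log2 -12.31). Its interaction did not pass. Whether the GH1 reads came from the cells' own gene was not tested. C8orf4 (TCIM) had 23.7, 15.04 and 12.2 against 147, 163 and 163 (log2 3.19 ± 0.235 SE, adjusted p = 5.44e-07). LGR6, an R-spondin receptor, had 43.2, 51.4 and 62.3 against 88.6, 138 and 119.8 (log2 1.12 ± 0.233 SE, adjusted p = 0.00219), and WDR31 had 175, 211 and 156 against 394, 409 and 367 (log2 1.12 ± 0.107 SE, adjusted p = 5.67e-06). SAMD13 had 44.2, 45.1 and 31.7 against 89.8, 82.1 and 98.0 (log2 1.15 ± 0.244 SE, adjusted p = 0.00245). Each was higher in every A197-270 library than in any vector library. RUFY4 was lower, with 84.3, 89.0 and 95.2 against 18.0, 27.8 and 28.1 (log2 -1.85 ± 0.447 SE, adjusted p = 0.00579). The read-through genes TRIM39-RPP21 and PALM2-AKAP2 met the same rule, but their reads may belong to the joined genes, and their adjusted p ran from 0.0142 to 0.112 and 0.0218 to 0.156 with 1 library left out. TRIM39-RPP21 missed the threshold without any 1 of libraries 8 to 12, and PALM2-AKAP2 without 7, 9, 10 or 12.

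For most antiviral effectors the construct difference on the log2 scale was smaller with IFN-gamma than without it. Without IFN-gamma 12.5% of all tested genes were higher and 12.6% lower with A197-270, but 44 of the 45 antiviral effectors were lower and 0 higher, with a median log2 of -3.77. The interaction, the difference with IFN-gamma minus that without, passed for 126 genes (0.897%), 115 (0.819%) above 0 and 11 (0.0783%) below. Among the 4888 genes called with IFN-gamma it passed for 79 (1.62%). Of the antiviral effectors it passed for 40. XAF1, a pro-apoptotic interferon target, had 176, 145 and 155 with the vector and 0 reads with A197-270 without IFN-gamma, and 1778, 1669 and 1559 against 961, 1121 and 1068 with it (interaction log2 6.64, adjusted p = 1.31e-11, a fitted value that depends on the pseudocount). IFITM1 had 20770, 20800 and 20900 against 1217, 1104 and 1153 without and 35130, 35280 and 35350 against 19590, 19130 and 15360 with IFN-gamma (interaction log2 3.19, adjusted p = 4.08e-11). On the log2 scale the A197-270 libraries of both genes were nearer to the vector libraries with IFN-gamma than without, while the gap of XAF1 in normalized counts was wider with it.

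The interferon beta and CCL5 genes kept a large gap in both settings. IFNB1 had 561, 557 and 495 against 6.57, 5.83 and 6.3 without IFN-gamma (interaction log2 2.08, adjusted p = 0.00302), and CCL5 had 2649, 2700 and 2338 against 40.3, 40.8 and 42.0 (interaction log2 1.75, adjusted p = 0.000147). HSPA6 had 18.1, 24.0 and 21.8 against 7882, 7523 and 7364 without IFN-gamma, and its interaction did not pass (log2 -0.19 ± 0.142 SE). Ribosomal proteins had 31 of 47 members higher without IFN-gamma (median 0.23) and 44 with it (median 0.38), but the interaction passed for 0 of the 47. A few genes had an interaction below 0. NT5DC2 had 2041, 2064 and 2234 against 4079, 3953 and 4450 without and 1868, 1935 and 1995 against 2599, 2376 and 2566 with IFN-gamma (interaction log2 -0.60, adjusted p = 0.000353). RC3H1, an RNA-binding repressor of immune transcripts, had 1904, 1964 and 1973 against 1781, 1821 and 1785 without and 2325, 2480 and 2569 against 1763, 1775 and 1818 with it (interaction log2 -0.34, adjusted p = 0.00952). For RC3H1 the 3 vector libraries with IFN-gamma were all above the 3 without it.

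**Figure D5:**
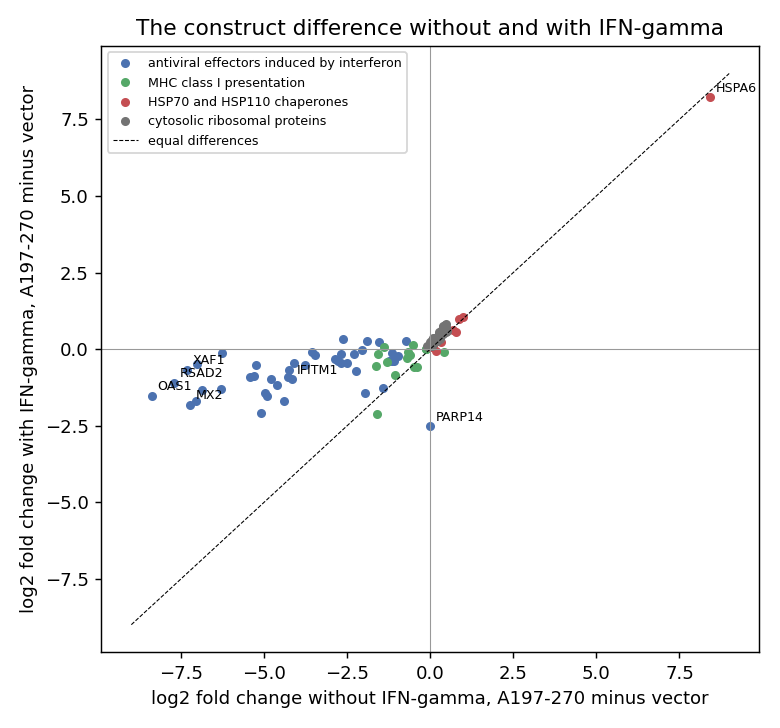
Each point is a tested member of 4 gene lists, with the log2 fold change of A197-270 over vector without IFN-gamma on the x axis and with IFN-gamma on the y axis; the dashed line marks equal differences. Most antiviral effectors lie left of the line and PARP14 lies below it, while HSPA6 and the ribosomal proteins lie near it.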

How the data were processed

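The authors deposited 1 table with 12 library columns of normalized values and 19836 rows of protein-coding genes, treated as a signal, since each column is read counts over a single scaling factor. Tools named in the submitters' processing notes, with no role or order, are DESeq2 1.22.1, StringTie 1.3.3b and HISAT2 2.1.0, and the build is hg38. All values of a library (100%) came out whole, to within 0.001 of a read, when divided by its smallest value above 0, and these whole reads were used where a count test is named. Totals of the 6 libraries with IFN-gamma were 31417431 to 39299762 reads. Floors of 3 reads cover counting error only, because the deposited table holds no molecular identifiers.

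Groups came from the treatment labels. Differences were tested with limma 3.58.1 (R 4.3.3) in 1 model of 4 group means over all 12 libraries, fitted to log2(value + 1) with a trend of variance on mean, for 14049 genes whose mean over the 12 reached 10. Reads on the other genes made up 0.0179%. P-values are two-sided, with Benjamini-Hochberg adjustment over all tested genes, with a threshold of 0.05. Fold changes on the log2(value + 1) scale understate those of low genes. The interaction is the difference with IFN-gamma minus that without. Alternatives were pseudocounts of 0.5 and 5, no filter or a mean of at least 50, equal totals, quantile normalization and TMM, the 6 libraries alone, no trend, each library left out in turn, edgeR 4.0.16 and DESeq2 1.42.0 on the recovered reads. The fit was tested on simulated data.

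The members, the 40 gene lists (823 of 824 entries matched) and the named genes were chosen with earlier results of these data known. Genes named are a fixed set, the 12 largest rises and 12 largest falls among called genes that reach a mean of 50 and whose groups do not overlap, up to 4 called members of each list with the largest differences together with exceptions in direction, and the 8 genes of each direction with the smallest adjusted p of the interaction among called genes. Clone-based names were not counted among the largest rises and falls. Some named genes are given only as counts, and other list members appear as examples, chosen after their values were seen. A few named genes are not reported here. Lists were given no test. Positions are from GENCODE 29 (19786 of 19836 identifiers matched). Promoter windows are from RefSeq GRCh38.p14. CRYAB and CCL5 had no window in that table. How reads shared by near-identical, overlapping or antisense genes were assigned, and whether strand was used, is not stated in the labels or the table. Values of HSPA1A and HSPA1B, HLA genes, histones, interferon lambdas, growth hormone genes and read-through genes are uncertain for that reason. Shares of reads were compared with an exact two-sided permutation test. Python 3.11.15 with pandas 2.3.3, scipy 1.17.1 and matplotlib 3.10.9 was used.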

Additional observations from a re-analysis of the deposited data

Results flagged for a closer look

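The genes below are those named whose difference between A197-270 and vector cells itself differed between cells with and without IFN-gamma. Each value is the interaction log2, the difference with IFN-gamma minus the difference without it, and each passed an adjusted p of 0.05 in limma, as did 0.897% of all tested genes. A value above 0 means that A197-270 cells were higher relative to vector cells with IFN-gamma than without it.

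In A197-270 libraries without IFN-gamma, XAF1 and IFI16 had 0 reads, and MX2, CXCL10 and IFNB1 had few, so their fitted values below depend on the pseudocount.

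Among interferon-induced effectors the interaction was 6.64 for XAF1, 5.42 for MX2, 3.88 for TRIM22, 3.27 for PARP9, 3.25 for EPSTI1, 3.19 for IFITM1, 2.99 for IFI27, 2.71 for IFITM3, 2.56 for BST2, 2.25 for IFI35, 2.17 for IFIT5, 2.11 for UBE2L6, 2.03 for LGALS3BP, 1.76 for TRIM25 and 0.98 for SAMHD1. For the sensors IFIH1, IFI16 and DHX58 it was 3.18, 2.53 and 1.40. In the IFN-gamma relay it was 2.08 for IRF9 and 0.545 for IRF1. It was 4.47 for the chemokine gene CXCL10, 1.75 for CCL5, 2.08 for IFNB1 and 2.49 for GBP1. In antigen presentation B2M had 1.07, and the proteasome activator genes PSME1 and PSME2 had 0.74 and 0.49. NDRG1 was the single hypoxia gene among them, at 0.32.

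The interaction was below 0 for NT5DC2 (-0.60), CLN8 (-0.55), LINGO1 (-0.40), RC3H1 (-0.34), RIPOR1 (-0.33) and MAX (-0.29), MAX encoding the partner of MYC. A clone-named gene, AC010547.5, had -4.78, with libraries of one group without IFN-gamma differing widely among themselves (60.99, 424.8 and 673.5 with A197-270). The calls of CLN8 and MAX in the comparison with IFN-gamma were lost without vector library 9, A197-270 library 10 or A197-270 library 11 (0.00475 to 0.0714 and 0.0212 to 0.107 as adjusted p over the 6 omissions).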

How the results depend on the processing

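Of 199 called genes picked by the naming rule, not all of which are described, 151 kept their direction and call under all 17 alternatives, and 7 turned direction under any. Fewer or more genes tested gave 87 higher and 117 lower at 2-fold or more without the filter, and 23 and 40 with a mean of at least 50, against 46 and 73. Equal totals gave 1512 higher and 4170 lower. DESeq2 called 279 interactions against 126, and the cause was not tested. Without 1 library, counts ran from 2073 to 2400 higher, 1622 to 2011 lower, 33 to 61 and 60 to 84 at 2-fold or more, and 107 to 154 interactions, and the mitochondrial difference from 0.0863 to 0.204 percentage points. edgeR called 4658 of the 4888 genes in the same direction, and DESeq2 4687. With quantile normalization, CANX had -0.181, HSPA8 -0.166, WARS -0.144, JUN -0.137, PTGES3 -0.0314, HSP90AB1 -0.0117 and NPM1 -0.0034 on the log2 scale, each turned against its main direction. Of these CANX, HSPA8 and WARS passed the threshold as lower (adjusted p 0.000863, 0.0165 and 0.0462), and 12 of all 4888 calls passed in the opposite direction there. PSME2 ran from -0.0817 to 0.0454 with 1 library left out, above 0 without vector library 8 and, at 0.00441, without A197-270 library 11. Genes near a mean of 10 rest on few reads a library, and small differences there were not detectable at this depth. No paired analysis was possible because the groups compared share no replicate numbers.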

Other observations

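Translation factors were looked at after the ribosomal protein values had been seen, so they are described without a test of the group. Of 7 genes of the elongation factors EEF1 and EEF2, 5 were called higher with A197-270 and 0 lower (median log2 0.714). EEF1A1, which brings aminoacyl-tRNA to the ribosome, had 140000, 160400 and 149400 normalized counts with the vector and 290300, 259200 and 301600 with A197-270 (log2 0.92 ± 0.0704 SE, adjusted p = 8.18e-07). EEF2, the translocase, had 89730, 97870 and 95030 against 153800, 154000 and 157100 (log2 0.72 ± 0.0622 SE, adjusted p = 2.48e-06). Neither overlapped between the groups. EEF1A2, the tissue-restricted relative of EEF1A1, had 9819, 10070 and 9891 against 9863, 10000 and 9629 and did not pass (log2 -0.01 ± 0.0503 SE, adjusted p = 0.857). Of 13 subunits of initiation factor 3, 11 were higher and 0 lower (median 0.436), with EIF3L at 11530, 12640 and 12610 against 20660, 19470 and 20760 (log2 0.73 ± 0.0501 SE, adjusted p = 3.52e-07). Of 11 initiation factor 4 genes, 6 were higher and 1 lower (median 0.107). EIF4B, a helicase cofactor, had 22660, 26310 and 24220 against 44660, 42100 and 46310 (log2 0.86 ± 0.0572 SE, adjusted p = 2.57e-07). The 1 lower member was the cap-binding gene EIF4E (log2 -0.11, adjusted p = 0.0448). The 8 initiation factor 2 genes had 1 higher, EIF2S3, and 0 lower (median 0.0374). Of all tested genes 18.6% were called higher, and 43.8% in the tenth with the highest mean.

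Abundant genes were more often called higher. In the tenth of tested genes with the highest mean over all 12 libraries (6203 normalized counts or more), 616 of 1405 genes (43.8%) were higher and 197 (14%) lower, with a median log2 of 0.0875. In the tenth with the lowest mean, 2.70% were higher and 3.56% lower. With equal totals the medians of these groups of genes were -0.00062 and -0.122. The part of normalization and of power at low levels in this pattern was not tested.

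Single genes of other kinds, seen after the fact, also stood out. H1F0, a linker histone of cells that leave the cycle, had 161700, 180100 and 179900 with the vector and 88740, 93680 and 79470 with A197-270 (log2 -0.996 ± 0.0724 SE, adjusted p = 5.07e-07). ACTG1, cytoplasmic gamma-actin, had 42030, 41970 and 43810 against 78990, 75400 and 78760 (log2 0.87 ± 0.049 SE, adjusted p = 7.14e-08). CD68, a lysosomal membrane protein gene, had 608, 1014 and 773 against 255, 413 and 330.3 (log2 -1.26 ± 0.194 SE, adjusted p = 0.000251), and RBM3, an RNA-binding protein induced by cold, had 1662, 1672 and 1507 against 2965, 2971 and 3097 (log2 0.90 ± 0.049 SE, adjusted p = 5.37e-08). The groups of 3 libraries did not overlap in any of these 4 genes. There were 18 genes with 0 reads in all libraries of one arm and at least 30 in the other. Most were read-through or clone-named genes, and GH1 was the one with the most reads.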
